A study of Mus musculus with 8 samples.

Results

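Erythroid and haem synthesis genes were examined in haematopoietic stem cells of mice with and without ADAR1, an enzyme that edits adenosine to inosine where RNA is double-stranded. The list holds 37 genes in 5 roles: transcription factors and the erythropoietin receptor, globins and their chaperone, enzymes and transporters of haem synthesis and iron entry, proteins of the red cell membrane and its skeleton, and further erythroid enzymes and regulators. Members were found by symbol in the array annotation, including globin probe sets that several paralogs share, and each gene was read from its brightest probe set. Of the 37 genes, 35 could be measured, out of 18194 genes in all. Ahsp and Trim58 were not analysed here.

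The study compared messenger RNA on 8 arrays, 1 mouse each: 3 of ADAR1 -/- (KO), 3 of ADAR1 +/- (HT) and 2 wild-type controls (WT). All mice were of strain C57/B6, and the cells came from fetal liver, sorted as Lin-Sca+Kit+, the fraction without lineage markers that carries the stem cell antigens Sca-1 and Kit. The labels give no embryonic age, no sex, no litter and no description of the ADAR1 allele. By the sex-linked transcripts Xist and Eif2s3y, arrays KO 1, HT 1 and HT 3 had a male pattern and the others did not. Neither WT array had it, so comparisons with WT are not balanced for sex. KO against HT, with KO 1 on one side and HT 1 and HT 3 on the other, is not balanced either. Groups are named here by their labels. Values are log2 of the deposited intensity, and a probe set counts as above background on an array where it exceeds the brightest control probe set for Bacillus transcripts on that array.

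Red cells arise in fetal liver from stem cells through committed progenitors. GATA1, with its cofactor FOG1 (Zfpm1) and with KLF1, switches on the globins, the haem pathway and the red cell membrane genes, and erythropoietin acting on its receptor keeps the progenitors alive. Haem is built from glycine and succinyl-CoA in steps shared between mitochondria and cytosol, with iron inserted last.

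The arrays differed between genotypes in measures that belong to no single gene. The share of probe sets above background was 40.0 to 46.4% in KO, 51.2 to 61.2% in HT and 45.6 to 51.5% in WT. Bacterial spike-in controls averaged 10.59 to 11.46 log2 units in KO, 10.15 to 10.29 in HT and 10.74 to 10.91 in WT. The ratio of the 3′ to the 5′ control probe set of Gapdh, a sign of RNA and labelling quality, was 7.45 to 8.73 in KO, 4.78 to 9.0 in HT and 4.32 to 4.39 in WT. The brightest of 3 Adar probe sets went against the genotype labels, at 5.90, 7.17 and 7.46 in KO, against 3.71, 4.01 and 3.31 in HT and 2.94 and 4.14 in WT (KO minus all controls 3.23 ± 0.41, SE, limma adjusted p = 0.017). The sources used here do not say which part of the gene was deleted or where these probes lie, so this reading does not check the labels. Kit, one of the sorting antigens, was above background on all 8 arrays, at 3.22 to 3.73 in KO, 3.72 to 4.55 in HT and 3.55 to 4.34 in WT. It was near background in KO 2 (3.22 against 2.89) and in KO 3 (3.30 against 3.04). Kit was lower in KO than in all controls at an unadjusted limma p under 0.05, as were 7.98% of all genes, and did not pass after adjustment. The gene of Sca-1, Ly6a, was not measured here. Because these are bulk samples, fewer cells of a type and less RNA per cell cannot be told apart.

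Few members passed the test in any comparison. Against HT, 0 members rose and 2 fell in KO, Uros and Slc25a37, with 0.456% of all genes called higher and 0.313% called lower (limma, adjusted p under 0.05 over 45037 probe sets). Against WT, Gata1 rose and Uros fell, with 0.39% of genes called higher and 0.126% lower. Against HT and WT together, 0 members rose and Uros alone fell, with 0.555% and 0.379% of genes called higher and lower. Between HT and WT 0 members and 0% of genes passed by limma, in either direction. At an unadjusted p under 0.05, 8 members were higher and 2 lower in HT than in WT, where 3% and 2.9% of all genes were. For KO against WT 3 were higher and 4 lower at that level (3.37% and 5.91% of all genes), and for KO against all controls 2 were higher and 7 lower (5.51% and 7.98%). Of the 7060 genes above background on all 8 arrays, 375 were higher and 175 lower at that level in HT than in WT. For KO these numbers were 414 and 750 against WT, and 417 and 1129 against all controls. Of the 24 such members, 5 and 2, 3 and 2, and 2 and 3 were higher and lower, in the same order.

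The list as a whole leaned low in KO against HT. Of the 35 members, 26 had a negative and 9 a positive difference, with a median of -0.51 log2 units against 0.06 over all genes. At an unadjusted p under 0.05, 10 members were lower and 2 higher, against 7.88% and 5.12% of all genes. The arrays of the 2 groups did not overlap for 13 members that were lower in KO and 2 that were higher, and for 10.3% and 12.2% of all genes. Bright genes in general leaned the same way: among the 7060 genes above background on all arrays the median was -0.28, and it was -0.03 after quantile normalization. Among the 24 members of that kind the median was -0.45. At an unadjusted limma p under 0.05, 1064 of the 7060 genes were lower and 329 higher, as were 6 and 2 of those 24 members. The list's median was -0.28 after quantile and -0.13 after cyclic loess normalization. Against WT the members' median was -0.29, with 19 of 35 differences negative. Over all genes it was -0.0001 with 9098 of 18194 negative, and over the 7060 genes above background throughout -0.15 with 4170 negative. Groups did not overlap for 7 lower and 4 higher members (10.8% and 9.49% of all genes). Against all controls the same held for 5 lower and 1 higher (4.95% and 4.19%). HT minus WT gave a median of 0.32, with 21 of 35 positive and no overlap for 11 members higher and 7 lower in HT (12.4% and 17.5% of all genes). Its median over all genes was -0.05 with 7914 of 18194 positive, and over the 7060 genes 0.11 with 4097 positive. The comparisons share the HT and WT arrays.

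**Figure D1:**
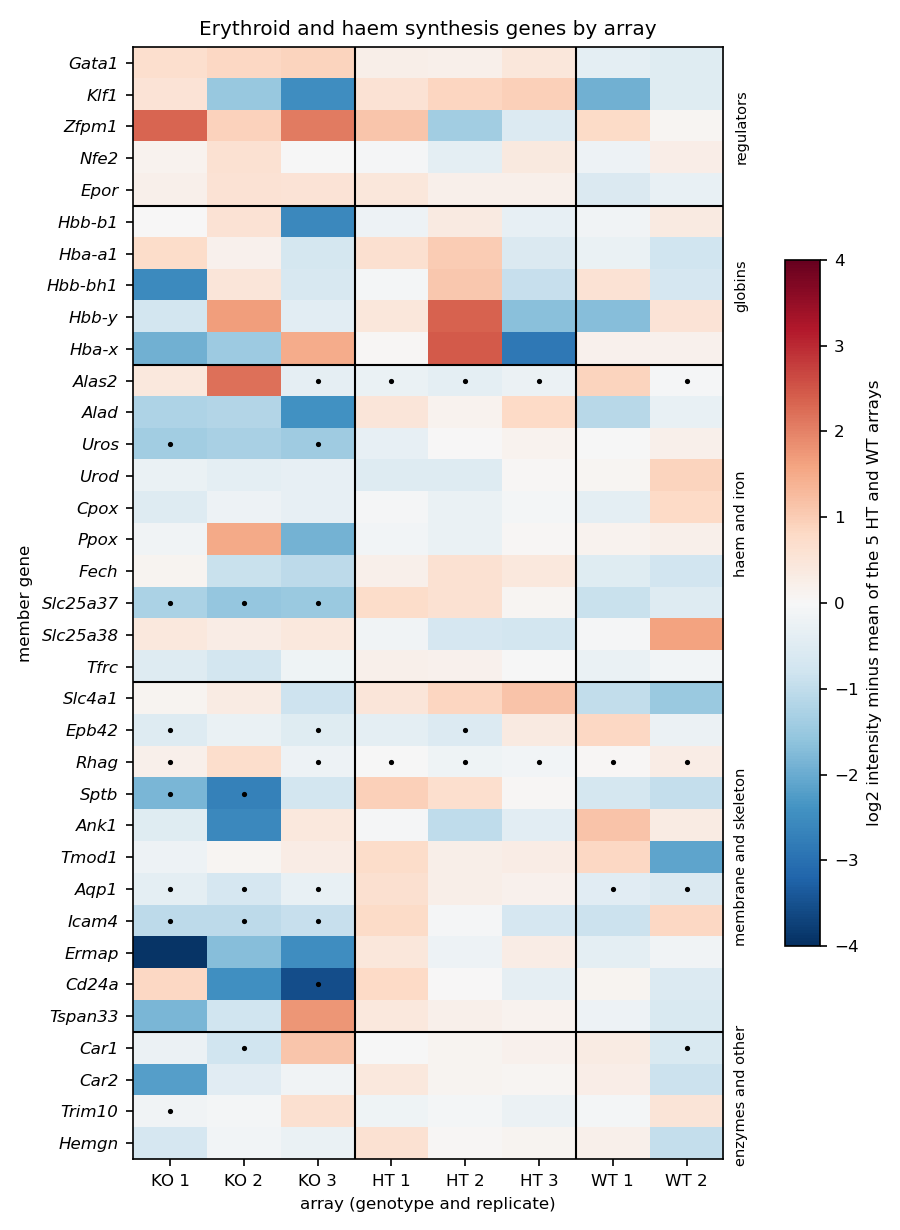
Log2 intensity of the 35 measured members (rows, grouped by role) on the 8 arrays (columns, KO left of HT and WT), as the difference from the mean of the 5 HT and WT arrays. Blue is lower and red higher than that mean, and a black dot marks a value at or below the array's background; the globin rows vary within each genotype, and Uros is blue on all 3 KO arrays.

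Among the regulators, Gata1 was ordered by genotype. This X-linked zinc finger factor, required for red cell and platelet precursors, read 7.50, 7.67 and 7.74 in KO, 7.07, 7.04 and 7.30 in HT and 6.44 and 6.36 in WT. Every KO array lay above every HT array and every HT array above both WT arrays, an order that 87 of 18194 genes (0.478%) showed and no other member did. Gata1 averaged 7.64 ± 0.12 in KO (SD, n = 3), 7.14 ± 0.14 in HT (SD, n = 3) and 6.4 ± 0.06 in WT (SD, n = 2). It rose by 1.24 ± 0.15 log2 units (SE), 2.36-fold, in KO against WT (limma adjusted p = 0.036). The differences of 0.50 ± 0.13 in KO against HT (adjusted p = 0.259) and 0.74 ± 0.15 in HT against WT (adjusted p = 0.624) did not pass. The call against WT was lost without each of the 8 arrays (adjusted p 0.0523 to 0.107). It was also lost with a covariate for sex-linked transcripts (0.111) and in the fit of the KO and WT arrays alone (0.293).

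The bases before the Gata1 start are shown because it is the regulator that the other members are known to answer to. RefSeq promoter entries (GRCm38.p6) matched 26 of the 37 members, with 29 start sites; the 250 bases before each start were searched on both strands for GATA motifs (AGATAA or AGATAG, and TGATAA or TGATAG) and for CCACCC, the core of the sites that KLF1 and related factors bind. The motifs were counted separately, so matches may share an end base. In the Gata1 stretch, chrX:7967911-7968160 on the minus strand, capitals mark the only match, 1 CCACCC on the strand printed:
Gata1: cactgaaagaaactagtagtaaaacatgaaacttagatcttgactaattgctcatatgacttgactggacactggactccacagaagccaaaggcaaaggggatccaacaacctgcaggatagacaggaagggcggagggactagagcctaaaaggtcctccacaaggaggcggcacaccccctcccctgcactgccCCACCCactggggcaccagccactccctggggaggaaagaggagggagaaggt
A GATA motif was found in 15 of the 29 member stretches (51.7%), against 26.5% of the 32851 stretches of all genes. CCACCC was found in 14 of 29 (48.3%), against 28.1% of all. A match is only a run of letters, and these shares were not tested.

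The other regulators did not pass in any comparison. Klf1, the factor that drives adult beta-globin, read 7.0, 4.94 and 3.98 in KO, 7.04, 7.32 and 7.42 in HT and 4.52 and 5.98 in WT. The HT arrays were close together and highest, while the KO arrays spread over 3.02 log2 units, so KO minus HT was -1.95 ± 0.77 (adjusted p = 0.419). Zfpm1, the GATA1 cofactor FOG1, read 8.50, 7.11 and 8.28 in KO, against 7.29, 4.80 and 5.66 in HT and 6.95 and 6.25 in WT. KO 2 lay below HT 1, and KO minus all controls was 1.77 ± 0.60 (adjusted p = 0.327). A second Zfpm1 probe set, above background on all 8 arrays, gave 0.12 ± 0.80 against all controls (adjusted p = 0.964) and -0.48 ± 0.81 against HT, where the first gave 2.05 ± 0.68. Epor, the erythropoietin receptor, read 8.0, 8.38 and 8.33 in KO, 8.25, 7.99 and 8.0 in HT and 7.22 and 7.49 in WT. Both genotypes with a mutant allele lay above both WT arrays, by 0.88 ± 0.18 for KO (adjusted p = 0.205) and 0.73 ± 0.18 for HT (adjusted p = 0.816). Nfe2, a factor of the erythroid and megakaryocyte lineages, ranged from 7.89 to 8.88 over the 8 arrays with all groups overlapping.

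**Figure D2:**
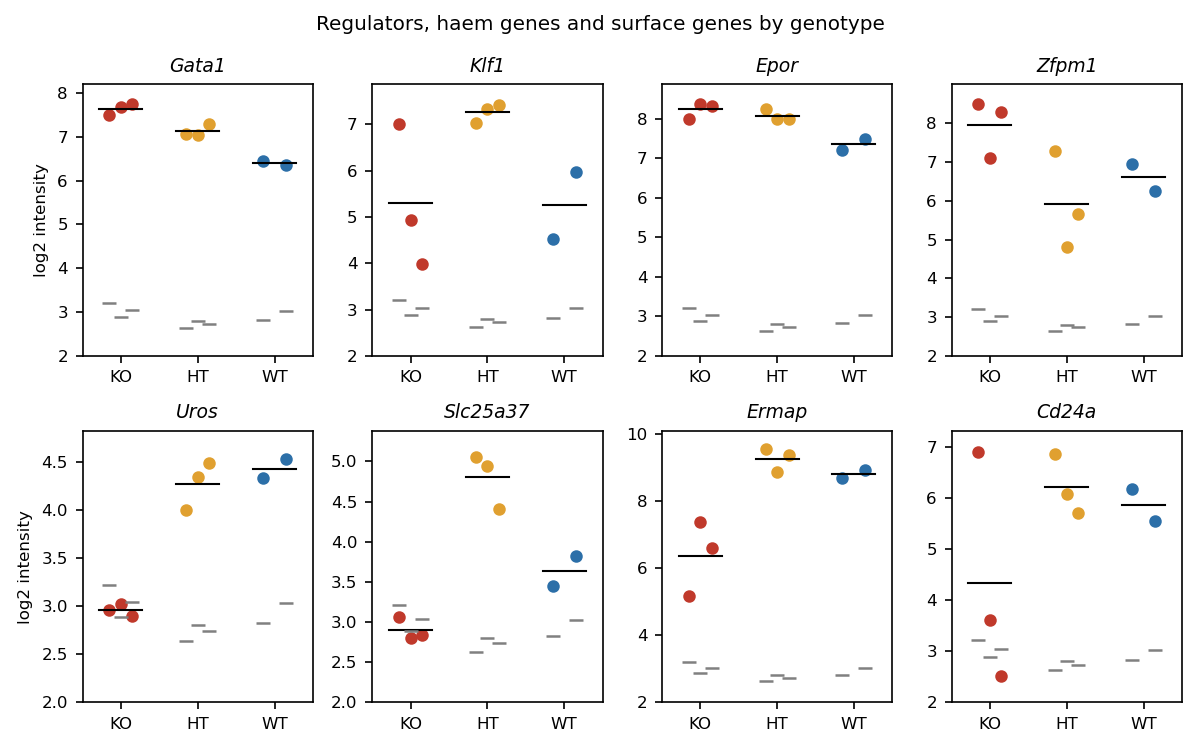
Log2 intensity of 4 regulators (top) and of 2 haem and 2 surface genes (bottom) on each array, by genotype, with KO left of HT and WT. Points are arrays, black lines group means and grey dashes each array's background; Gata1 is highest in KO and lowest in WT without overlap, and all 3 KO points of Uros and Slc25a37 lie below every HT and WT point.

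Globins were above background in every sample, and no difference between genotypes passed. These genes encode the oxygen-carrying chains, with Hbb-bh1, Hbb-y and Hba-x made mainly by primitive red cells of the embryo and the adult alpha and beta chains by definitive ones. The lowest adjusted p of the 5 probe sets against all controls was 0.649, and none had an unadjusted p under 0.05 in any comparison. The adult beta probe set, read here for Hbb-b1 but shared with Hbb-bt, Hbb-bs and Hbb-b2, read 9.75, 10.30 and 7.15 in KO, 9.52, 10.07 and 9.39 in HT and 9.58 and 10.08 in WT. KO 3 stood alone as low, and without it KO minus HT was 0.36 in place of -0.60. The adult alpha probe set, shared by Hba-a1 and Hba-a2, read 10.45, 9.88 and 9.02 in KO, 10.34, 10.74 and 9.11 in HT and 9.44 and 8.90 in WT. All 3 groups overlapped.

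The embryonic chains varied most. Hba-x, the zeta chain, read 4.34, 4.79 and 7.73 in KO, 6.29, 8.71 and 3.38 in HT and 6.41 and 6.43 in WT, a spread of 5.33 log2 units within HT. Hbb-y, the epsilon-y chain, read 7.73, 10.13 and 8.04 in KO, 8.92, 10.82 and 6.80 in HT and 6.77 and 9.0 in WT. Hbb-bh1 read 5.81, 8.85 and 7.74 in KO, 8.28, 9.45 and 7.44 in HT and 8.96 and 7.70 in WT. Array HT 2 was the highest of all 8 for Hba-a1, Hbb-bh1, Hbb-y and Hba-x. Across genes the spread within a genotype exceeded the differences between genotypes: KO minus all controls was -0.63 ± 1.21 for Hba-x, 0.17 ± 1.02 for Hbb-y and -0.90 ± 0.72 for Hbb-bh1 (adjusted p 0.855, 0.96 and 0.649).

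**Figure D3:**
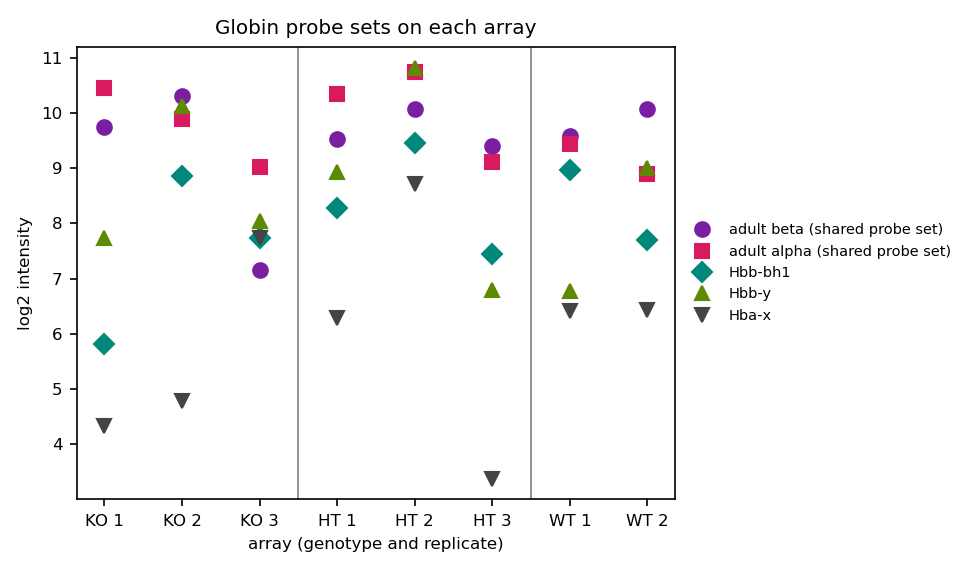
Log2 intensity of the 5 globin probe sets on each of the 8 arrays, KO left of HT and WT. Each symbol is 1 probe set; KO 3 is low for adult beta, HT 2 is highest for the other 4, and no genotype stands apart.

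Uros had the lowest adjusted p of the members. It encodes uroporphyrinogen III synthase, which closes the tetrapyrrole ring of haem. Uros read 2.96, 3.02 and 2.90 in KO, against 4.0, 4.34 and 4.48 in HT and 4.33 and 4.52 in WT. The KO arrays lay together below all 5 others. Only 1 of the 3 KO arrays, KO 2, was above background, so the size of the fall rests on readings at or near background. Uros averaged 2.96 ± 0.06 in KO (SD, n = 3) and 4.33 ± 0.21 in the controls (SD, n = 5), so that its measured values fell by 1.38 ± 0.14 log2 units (SE, limma adjusted p = 0.006). It also fell by 1.31 ± 0.16 against HT (adjusted p = 0.029) and by 1.47 ± 0.18 against WT (adjusted p = 0.036), while HT minus WT was -0.16 ± 0.18 (adjusted p = 0.932). The call against HT alone held in 1 of 17 alternatives and the call against WT alone in 0 of 17. The call against all controls was lost with the mean of both Uros probe sets (-0.69, adjusted p = 0.104). The other probe set, above background on 4 arrays, gave 0.0041.

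Both Uros start sites printed here have RefSeq entries, shown because they differ in the motifs searched. The upstream start, chr7:133709296-133709545 on the minus strand, holds neither motif, and the downstream one, chr7:133702501-133702750 on the minus strand, holds 2 GATA motifs, in capitals as they read on the strand printed:
Uros upstream start: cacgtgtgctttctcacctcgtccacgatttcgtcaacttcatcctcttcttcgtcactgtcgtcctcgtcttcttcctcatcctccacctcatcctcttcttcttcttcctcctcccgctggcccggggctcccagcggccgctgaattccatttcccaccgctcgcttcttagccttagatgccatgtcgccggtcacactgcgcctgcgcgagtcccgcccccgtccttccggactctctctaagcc
Uros downstream start: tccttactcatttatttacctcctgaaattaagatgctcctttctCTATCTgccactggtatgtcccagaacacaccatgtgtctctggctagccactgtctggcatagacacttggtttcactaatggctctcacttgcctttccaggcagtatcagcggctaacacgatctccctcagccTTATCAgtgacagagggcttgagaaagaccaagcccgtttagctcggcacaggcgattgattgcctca
The arrays do not tell which start was used.

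Slc25a37, or mitoferrin-1, carries iron into the mitochondria of red cell precursors. Its level was 3.07, 2.80 and 2.84 in KO, 5.06, 4.94 and 4.41 in HT and 3.45 and 3.83 in WT. All KO arrays were at background, every HT array was highest and the WT arrays lay between. Slc25a37 fell by at least 3.37-fold in KO against HT (limma adjusted p = 0.022). KO was at least 1.51-fold lower than WT without passing (adjusted p = 0.484), and HT minus WT was 1.16 ± 0.24 (adjusted p = 0.624). The call against HT was lost without KO 1, KO 3, HT 1 or HT 2 (adjusted p 0.0509 to 0.112) and in 3 other alternatives.

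The remaining haem and iron genes gave no call. Alad, which joins 5-aminolevulinate into porphobilinogen, read 4.94, 4.98 and 3.75 in KO, 6.64, 6.31 and 6.98 in HT and 5.05 and 5.87 in WT. KO was lowest without overlap, at -1.61 ± 0.48 against all controls (adjusted p = 0.264). Alas2, the erythroid first enzyme of the pathway, read 3.30, 5.07 and 2.51 in KO, 2.62, 2.48 and 2.66 in HT and 3.78 and 2.84 in WT. It was above background on 3 arrays, KO 1, KO 2 and WT 1. The KO mean, raised mainly by KO 2, was at least 1.87-fold above HT without passing (adjusted p = 0.541), and the groups overlapped. Urod, Cpox, Ppox and the glycine importer Slc25a38 were above background on all 8 arrays; Urod and Cpox stood within 0.12 and 0.33 log2 units among KO arrays, whereas Ppox spread over 3.38.

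**Figure D4:**
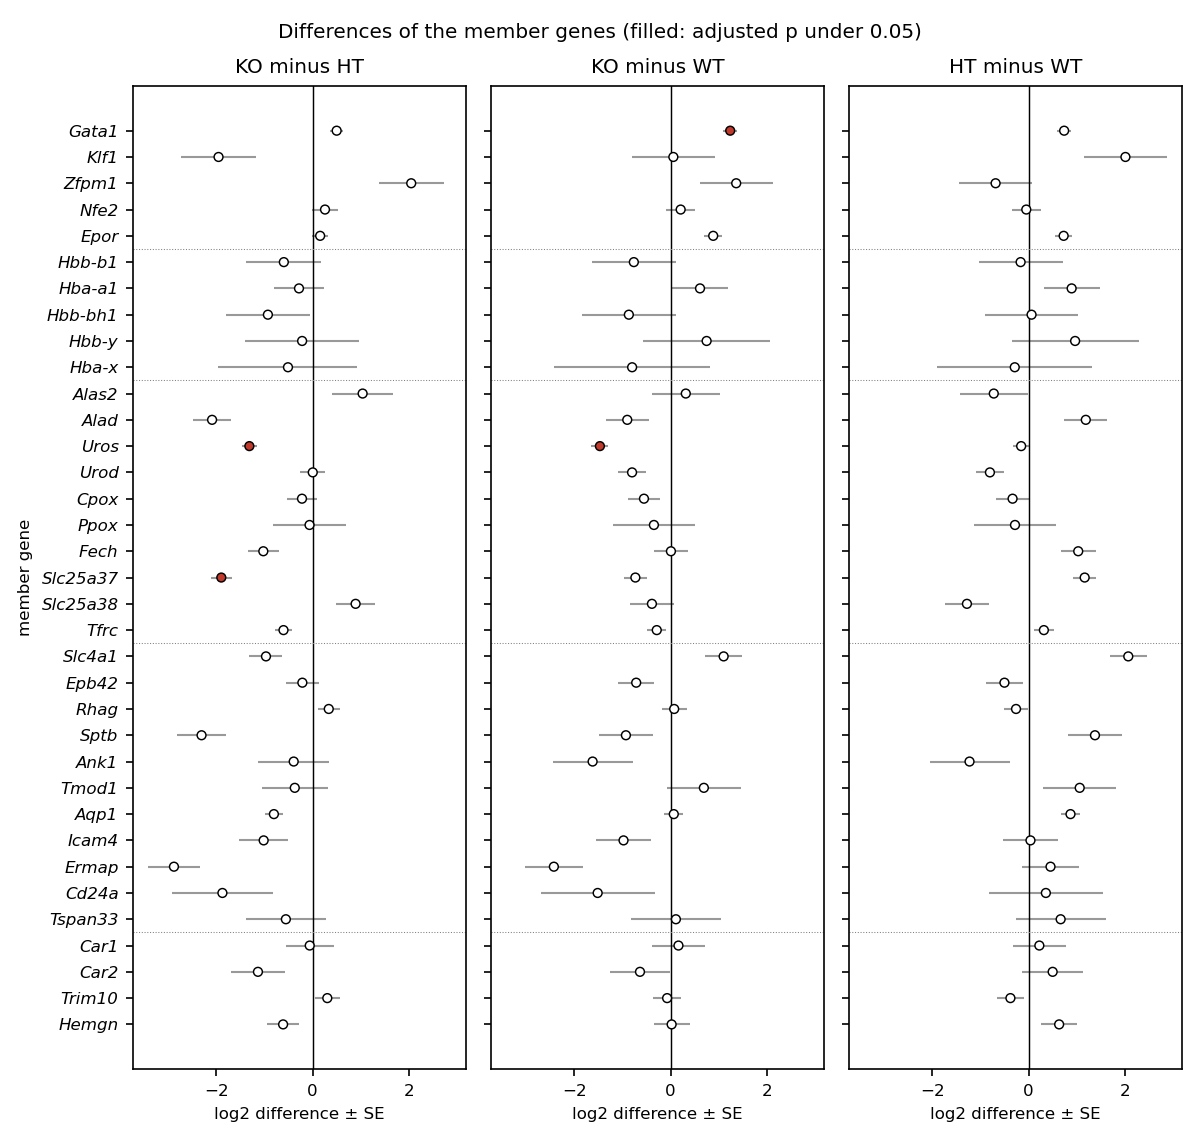
Log2 difference of each member with its standard error in KO minus HT, KO minus WT and HT minus WT, from the 3-group limma model. Filled points have an adjusted p under 0.05: Uros and Slc25a37 in the first, Gata1 and Uros in the second, and none in the third.

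Among membrane genes the widest gap was that of Ermap, an immunoglobulin-family protein of the erythroid surface that carries the Scianna blood group in humans. Ermap read 5.16, 7.36 and 6.59 in KO, against 9.53, 8.86 and 9.35 in HT and 8.67 and 8.91 in WT. The brightest KO array was below the dimmest control array, yet the KO arrays spread over 2.21 log2 units. KO minus all controls was -2.70 ± 0.46 (adjusted p = 0.061), short of the threshold, and -2.88 ± 0.53 against HT (adjusted p = 0.116) and -2.42 ± 0.60 against WT (adjusted p = 0.300). The difference from all controls passed without KO 1 (0.0468), without KO 2 (0.0193) and in 5 other alternatives (0.0328 to 0.0478). Its stretch before the start, chr4:119189996-119190245 on the minus strand, is shown because both motifs lie side by side in it, a GATA motif and a CCACCC, each in the reverse orientation and in capitals:
Ermap: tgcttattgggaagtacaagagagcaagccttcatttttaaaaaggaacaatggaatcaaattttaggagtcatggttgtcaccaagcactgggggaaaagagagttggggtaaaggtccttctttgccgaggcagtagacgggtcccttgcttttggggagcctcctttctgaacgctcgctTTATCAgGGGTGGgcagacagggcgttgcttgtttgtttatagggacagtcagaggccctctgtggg

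Slc4a1, the band 3 anion exchanger, read 4.85, 5.07 and 3.92 in KO, 5.24, 5.61 and 5.89 in HT and 3.77 and 3.25 in WT. HT lay highest and WT lowest with no overlap of any pair of groups, and HT minus WT was 2.07 ± 0.38 (adjusted p = 0.546). Sptb, erythroid beta-spectrin, read 3.11, 2.23 and 4.20 in KO, 5.89, 5.59 and 4.98 in HT and 4.24 and 3.98 in WT. The KO arrays reached into the WT range, with 1 of 3 above background, and KO minus HT was -2.31 ± 0.50 (adjusted p = 0.166). A second Sptb probe set, above background on 5 arrays, gave 0.0064 ± 0.33 (adjusted p = 0.995). Cd24a, a surface glycoprotein of erythroid and lymphoid precursors, read 6.89, 3.62 and 2.52 in KO, 6.86, 6.08 and 5.71 in HT and 6.18 and 5.54 in WT. On this probe set KO 1 was the highest of all arrays and KO 3 was below background. Without KO 1 the difference from all controls was -3.00 (adjusted p = 0.041), against -1.73 ± 0.89 with it (adjusted p = 0.502). On the further Cd24a probe sets KO 1 lay below every HT and WT array, at 5.43 and 3.53. Their differences from all controls were -3.07 ± 0.73 and -1.59 ± 0.67 (adjusted p 0.161 and 0.428). On the probe set where KO 1 read 3.53, KO 3 read 4.43, above both WT arrays (3.96 and 4.04). There KO minus WT was -0.47 ± 0.55 (limma adjusted p = 0.876).

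The other 7 membrane genes gave no call. Rhag, a partner of the Rh proteins, was above background on 1 array, the water channel Aqp1 on the 3 HT arrays alone, and Icam4 on no KO array. Epb42, which ties band 3 to the skeleton, was above background on 5 arrays. Ank1, Tmod1 and Tspan33 were above background throughout, with ranges within a genotype of 2.99, 2.95 and 3.59 log2 units. In the last group, carbonic anhydrase 2 (Car2) read 8.49, 10.24 and 10.54 in KO, 11.10, 10.79 and 10.77 in HT and 10.94 and 9.84 in WT, with KO below HT but overlapping WT. Hemgn, a nuclear regulator of erythroid cells, read 7.05, 7.62 and 7.47 in KO, 8.35, 7.79 and 7.83 in HT and 7.93 and 6.79 in WT. Neither passed (adjusted p 0.511 and 0.696 against all controls), nor did Car1 in any comparison. Trim10, a ring finger protein of erythroid cells, was near background, at 2.92, 2.98 and 3.70 in KO, 2.88, 2.98 and 2.82 in HT and 2.98 and 3.56 in WT (KO minus all controls 0.15 ± 0.24, adjusted p = 0.82).

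A pattern noticed after the values were seen was that some members were highest in HT. In 8 of 35 members (Klf1, Alad, Fech, Slc25a37, Tfrc, Slc4a1, Sptb and Aqp1) every HT array lay above every KO and every WT array, as in 3.44% of all genes. Of the 24 members above background on all 8 arrays it held for 5, against 6.13% of such genes. The pattern is that of the brightest probe set. Further probe sets of Fech, Tfrc, Slc4a1 and Sptb that were above background on all arrays of a group did not show it. A second Tfrc probe set read 9.16 in KO 3 against 8.27 to 8.31 in HT. A second Slc4a1 probe set was highest in KO 2, at 6.17, and a second Sptb probe set lowest in HT 3, at 2.55. Fech, which inserts iron into haem, read 7.12, 6.09 and 5.94 in KO, 7.19, 7.62 and 7.41 in HT and 6.52 and 6.24 in WT. Tfrc, the transferrin receptor, read 7.93, 7.72 and 8.29 in KO, 8.68, 8.64 and 8.43 in HT and 8.18 and 8.35 in WT. The margin between the dimmest HT array and the next array was small for Klf1, Fech and Tfrc. The HT group also had the highest shares of probe sets above background, although WT 1 (51.5%) exceeded HT 2 (51.2%), and the part of that in the pattern was not tested.

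**Figure D5:**
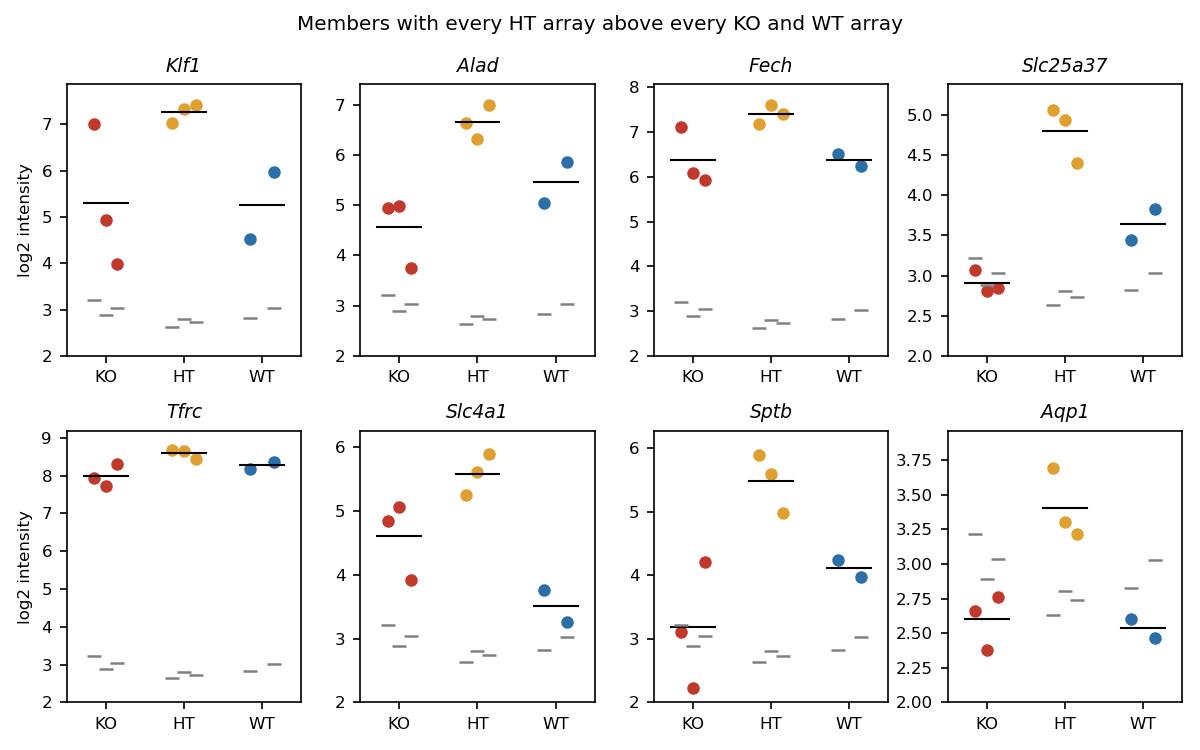
Log2 intensity of the 8 members for which every HT array exceeds every KO and WT array, by genotype, with KO left of HT and WT. Points are arrays, black lines group means and grey dashes each array's background; the members were picked for this pattern.

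Of 62 measured genes in 4 further erythroid lists (regulators, membrane, haem and iron, maturation), 1 passed in 1 comparison, as lower in KO than in all controls, where 0.379% of all genes were called lower. Slc40a1, or ferroportin, the iron exporter, read 3.39, 3.48 and 4.12 in KO, against 5.82, 5.21 and 5.33 in HT and 5.16 and 5.48 in WT. The KO arrays were lowest without overlap, and Slc40a1 fell by 1.74 ± 0.22 log2 units, 3.34-fold, against all controls (limma adjusted p = 0.017). Background was 3.22 in KO 1 and 2.89 in KO 2, so the size of this fall rests partly on readings near background. Ferroportin is also abundant in macrophages that recycle iron. The other genes of these lists gave 0 calls, with medians of KO minus HT of -0.42 for 19 regulators, -0.22 for 15 membrane genes, -0.58 for 16 haem and iron genes and -0.96 for 12 maturation genes. The same median was 0.06 over all genes and -0.28 over the 7060 genes above background on all 8 arrays. Among the further regulators the largest differences were those of Stat5a, a signal carrier downstream of Epor (KO minus all controls -3.32 ± 0.71, adjusted p = 0.121), and Nfe2l2, an antioxidant regulator (-2.25 ± 0.61, adjusted p = 0.224). Cd47, a membrane protein that protects red cells from phagocytosis, was higher on all KO arrays than on any other (0.85 ± 0.27, adjusted p = 0.296). Slc2a1, a glucose transporter, Mkrn1, a ubiquitin ligase, and Prdx2, a peroxidase abundant in red cells, had differences of -1.06 ± 0.33, -1.55 ± 0.79 and -1.27 ± 0.40 (adjusted p 0.294, 0.5 and 0.303).

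Among markers of other fetal liver cell types, 2 of 12 hepatocyte genes fell against HT, where 0.313% of all genes did. Against all controls 1 hepatocyte gene and 1 of 12 macrophage genes fell (0.379% of all genes). By limma 0 of either list passed against WT or between HT and WT. At an unadjusted p under 0.05, KO against all controls gave 4 hepatocyte genes lower and 0 higher (7.98% and 5.51% of all genes). In that comparison 5 macrophage genes were lower and 1 higher. Against WT 3 hepatocyte genes were lower, and 5 macrophage genes lower and 1 higher (5.91% and 3.37% of all genes). Between HT and WT, 2 macrophage genes were higher and 0 lower at that level, and 2 hepatocyte genes higher and 1 lower. Of all genes 3% were higher and 2.9% lower there. The macrophage counts for KO at that level include Cd5l, which was at background on all 8 arrays. The summed intensity of 12 hepatocyte genes was 89.7 to 111 in KO, 653 to 1125 in HT and 243 to 656 in WT, and 3 to 5 of the genes were above background on each KO array, 7 to 10 on each HT array and 6 to 8 on each WT array. Afp, the fetal serum protein, was above background on 1 of 3 KO arrays and fell by 5.11 ± 0.79 in measured values against all controls (adjusted p = 0.040). Apoa2, above background on 2 of 3 KO arrays, fell by 3.32 ± 0.37 against HT (adjusted p = 0.022). For 12 macrophage genes the sum was 94.9 to 117 in KO, 394 to 523 in HT and 319 to 902 in WT, with 3 to 5, 9 and 8 genes above background. Lyz2 fell by 2.54 ± 0.34 against all controls (adjusted p = 0.021), and C1qb was at -3.69 ± 0.65 (adjusted p = 0.067). Among defining markers, Fga and the macrophage genes Adgre1 and Cd5l were at background on all 8 arrays, while C1qa, C1qc, Csf1r, Cd68 and Mrc1 were at background on every KO array. The part of these cells in the Uros, Slc25a37, Ermap and Slc40a1 values was not tested. In contrast, 10 megakaryocyte genes summed to 5185 to 6385 in KO, 5011 to 5794 in HT and 5159 to 5246 in WT, and none passed. Within these sums the brightest, Pf4, alone gave 2964 to 4280 in KO, 3611 to 4043 in HT and 3730 to 3785 in WT. Pf4 was at -0.14 and the most different, Gp1bb, at 1.32 in KO minus all controls. Gp1bb read 7.25, 8.50 and 10.60 in KO. At an unadjusted p under 0.05, 1 megakaryocyte gene, Itga2b, was higher in KO than in all controls and 0 were lower (5.51% and 7.98% of all genes). By limma 0 of 13 stem and progenitor, 8 mast, 11 granulocyte, 9 lymphoid, 10 endothelial and stromal and 7 housekeeping genes passed in any comparison. At an unadjusted p under 0.05 in KO minus all controls, 3 stem and progenitor and 3 housekeeping genes were lower (7.98% of all genes were), and 1 gene in each of the other lists was higher (5.51%). Differences of the genes named by rule in those lists were -1.33 for Mllt3, -1.54 for Hmga2, 0.27 for Cma1, 0.57 for Hdc, -1.22 for Mpo, 0.79 for Tek, -1.66 for Lyve1, -0.04 for Actb and -1.48 for Hprt, and Rag1 was at least 1.34-fold higher. The 7 housekeeping genes summed to 17556 to 22273 in KO, 23704 to 25709 in HT and 23414 to 23972 in WT, so that KO was lowest without overlap there as well.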

How the data were processed

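Total RNA of 8 samples was biotin-labelled, per the labels, and each was read on 1 Affymetrix array. The authors deposited linear intensity values per probe set, summarised with RMA per the submitters' processing notes; its version is not given in the sources used here. Log2 of the deposited intensity was taken with no further scaling. Of 45101 probe sets, 64 controls were left out and 45037 tested; 34945 named 1 gene, 932 several and 9160 none. Symbols were updated through gene numbers (34741 matched). No column was left unused (0). A gene was read from its brightest probe set over all 8 arrays, and background on an array was the highest of 27 Bacillus control probe sets. Where a whole group was at background, a fold is a bound, given as at least N-fold: the mean of the brighter group against the higher of background and measured value per array.

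A 3-group model (limma 3.58.1 in R 4.3.3, lmFit and eBayes, 5 residual degrees of freedom) gave KO minus HT, KO minus WT and HT minus WT; a 2-group model (6 degrees of freedom) gave KO minus all controls. Tests were two-sided, with Benjamini-Hochberg adjustment over all 45037 probe sets and a threshold of 0.05, and were checked on simulated data. The number of arrays limits the precision. Members and gene lists were chosen with earlier results of these data known. Named genes were all members past the threshold in any comparison, the globins, Gata1, Klf1, Epor, Alas2 and Slc4a1, the 3 members of largest difference in each role, and from every further list the genes past the threshold, otherwise the 2 of largest difference. From each list of other cell types the rule took the brightest gene and the one of largest difference. Alternatives changed the normalization, a pseudocount of 32, filters on low values, the probe set rule, array weights, a covariate for sex-linked transcripts, the samples in the fit and each replicate in turn. Promoter stretches are those of RefSeq, GRCm38.p6.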

Additional observations from a re-analysis of the deposited data

How the results depend on the processing

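No paired analysis was possible because replicate numbers follow the order of deposit and pair no samples. Groups of 3 or 2 arrays limit the precision, and members near background, such as Uros in KO, have little room to differ. The cause of each change below was not tested, except that filters and leaving out arrays change the number of probe sets or samples. Probe sets past the threshold in KO minus HT numbered 226; they were 126 with a pseudocount and 105 with the sex covariate, and 63 to 581 when each array was left out. In KO minus WT they were 147, then 62 with a pseudocount, 90 with array weights, 79 with the sex covariate, 4 with the KO and WT arrays alone, and 65 to 340 without each array. In KO minus all controls they were 262, and 156 to 792 without each array. In HT minus WT the count was 1; it was 5 with a pseudocount, 0 with both filters, with the sex covariate, with probe sets averaged and with 2 groups alone, and 0 to 164 without each array.

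Member calls in KO minus HT were 2. They were 1 with quantile normalization, both filters, averaged probe sets, array weights and 2 groups alone, 0 with cyclic loess, pseudocount and sex covariate, and 0 to 3 without each array. In KO minus WT they were 2, then 1 with quantile normalization, pseudocount and mean of probe sets, 0 with both filters, array weights, sex covariate and 2 groups alone, and 0 whichever array was left out. In KO minus all controls they were 1, then 2 with quantile, cyclic loess and both filters, and 1 to 3 without each array. The members' median in KO minus HT (-0.51) was -0.28 with quantile normalization, -0.13 with cyclic loess, -0.28 with a pseudocount, -0.63 with the sex covariate and -0.35 with array weights, and -0.69 to -0.23 without each array. In KO minus WT (-0.29) it was -0.10, -0.064 and -0.099 with the first 3 of these, -0.073 with the mean of probe sets, -0.19 with the sex covariate, and -0.38 to -0.16 without each array. In KO minus all controls (-0.36) it was -0.20, -0.025 and -0.29 with quantile, cyclic loess and pseudocount, and -0.50 to -0.26 without each array. In HT minus WT (0.32) it was 0.23, 0.16 and 0.18 with the same 3, 0.70 with the sex covariate, and 0.081 to 0.54 without each array.

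Uros passed against all controls in all 16 alternatives but the mean of probe sets. Against HT it passed in 1 of 17, without KO replicate 2, and against WT in 0 of 17 (adjusted p 0.0523 to 0.21). Gata1 against WT passed with quantile, cyclic loess, pseudocount and mean of probe sets. Epor against WT passed with cyclic loess (1.15, adjusted p = 0.0485), and Ermap against HT without KO replicate 2 (-3.37, 0.0399). Of 339 values each in KO minus HT, KO minus WT and HT minus WT and 319 in KO minus all controls, 10, 17, 13 and 17 changed sign, all of members without a call in that comparison.

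In KO minus HT, cyclic loess turned Hba-a1 (0.065) and Hbb-y (0.18); without each array Hba-a1 was -0.76 to 0.10, Hbb-y -1.24 to 0.77, Hba-x -1.88 to 0.78 and Hbb-b1 -1.21 to 0.36. In KO minus WT, Klf1 turned with array weights (-0.11) and the sex covariate (-0.35), and the sex covariate also turned Hba-x (0.17) and Trim10 (0.018); without each array Klf1 was -0.79 to 0.78, Trim10 -0.36 to 0.22, Hbb-y -0.36 to 1.86, Alas2 -0.41 to 0.87, Hemgn -0.55 to 0.59 and Hbb-b1 -1.38 to 0.20. In KO minus all controls, Slc4a1 turned with quantile (0.17), cyclic loess (0.19) and mean of probe sets (0.23), and Hba-a1 with mean of probe sets (-0.28) and array weights (-0.16). There, without each array, Slc4a1 was -0.51 to 0.21, Hba-a1 -0.26 to 0.46, Hba-x -1.68 to 0.014, Hbb-y -0.58 to 0.76, Hbb-b1 -1.28 to 0.30 and Trim10 -0.10 to 0.29. In HT minus WT, Hbb-bh1 turned with quantile (-0.015) and cyclic loess (-0.093), Hba-x with pseudocount (0.13) and sex covariate (1.64), Zfpm1 with mean of probe sets (0.41) and Cd24a with sex covariate (-0.98). There, without each array, Hbb-bh1 was -0.57 to 0.69, Hba-x -1.58 to 1.09, Hbb-y -0.15 to 2.08, Hbb-b1 -0.41 to 0.081 and Car2 -0.055 to 1.05.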

Other observations

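For 13 members at least 2 probe sets were above background. In 9 of them the probe sets shared the sign of KO minus all controls, and in 4 (Ank1, Hba-a1, Slc4a1 and Tspan33) they did not. The 3 Cd24a probe sets gave -3.07 to -1.59, the 3 Fech probe sets -0.67 to -0.52 and the 4 Tspan33 probe sets -0.99 to 0.93.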
